A study of Mus musculus with 2 samples.

Results

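The retinoblastoma (Rb) family, the E2F factors it binds and the E-type cyclins were followed through single cells of 2 mouse small cell lung cancer tumors. The set holds 10 genes, chosen by symbol, of the 27998 genes in the count tables: Rb1, Rbl1 and Rbl2, E2f1, E2f2, E2f3, E2f7 and E2f8, and Ccne1 and Ccne2. Both tumors carry the triple knockout (TKO) genotype Rb-/-, Trp53-/-, Rbl2-/- with a membrane-Tomato or membrane-GFP reporter at Rosa26, in animals of mixed C57BL/6, 129/SVJ and 129/SvOla strain aged 8 to 9 months. Tumors were started by an adenovirus that carries Cre under the CMV promoter, which is not limited to a cell type, and 1 tumor was taken from each of 2 mice 7 months later. Live cells, sorted as DAPI-negative, were captured on the 10x Chromium system as 1 library per tumor, called TKO1 and TKO2 here. No sample without the deletions is part of these data, so each tumor was read against the classes of cells within it and against the other tumor. The study describes the deletions as conditional, made in lung cells by Cre. Whether cells other than tumor cells carry them was not tested.

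In a resting cell the pocket proteins, pRB from Rb1, p107 from Rbl1 and p130 from Rbl2, sit on E2F factors and hold their target genes down. D-type and E-type cyclins with their kinases phosphorylate the pocket proteins, and the released activators E2F1, E2F2 and E2F3 switch on genes for DNA replication, the E2F genes and the cyclin E genes among them. E2F7 and E2F8 bind the same kind of site later in the cycle, without a pocket protein, and repress it. Loss of RB1 is a genetic hallmark of small cell lung cancer, and deletion of p130 speeds up the mouse tumors.

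The E2F genes and Rbl1 are known E2F targets themselves, so their start sites were searched for the E2F words TTTCCCGC, TTTGGCGC, TTTGCCGC and TTTCGCGC on both strands. RefSeq windows of GRCm38.p6, from 250 bases before to 50 bases after a start, were at hand for 8 of the 10 members, all but Rb1 and Ccne2. The window of E2f1 lies inside the gene, downstream of the GENCODE M21 start at base 154569892, so the region upstream of that start was not searched. An E2F word stood in a window of Rbl1, E2f2, E2f3 and E2f7, against 2.26% of all promoter windows (744 of 32851). The 3 below are shown because their word lies upstream of the start, at bases -18 to -11 for Rbl1, -198 to -191 for E2f7 and -11 to -4 for E2f3, and capitals mark it. Each is 100 bases, 5′ to 3′ on the gene's own strand: Rbl1 at chr2:157204535-157204634 (minus strand), E2f7 at chr10:110745189-110745288 (plus strand) and E2f3 at chr13:29986064-29986163 (minus strand).
Rbl1: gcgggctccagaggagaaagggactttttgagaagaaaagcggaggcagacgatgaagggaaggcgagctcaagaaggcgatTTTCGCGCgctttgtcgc
E2f7: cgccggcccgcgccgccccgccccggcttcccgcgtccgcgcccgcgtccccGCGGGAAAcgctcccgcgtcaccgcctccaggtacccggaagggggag
E2f3: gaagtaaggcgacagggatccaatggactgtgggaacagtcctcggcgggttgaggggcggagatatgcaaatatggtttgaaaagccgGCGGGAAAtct
The word of E2f7 and of E2f3 reads on the opposite strand. The word TTTGAA is the core of the cell cycle homology region bound by the DREAM complex, in which p107 or p130 and E2F proteins join Lin proteins. It stood on either strand in a window of Rbl2, E2f2, E2f3 and E2f8, against 17.9% of all windows (5878), and does not overlap the E2F words. That of E2f2 lies inside the gene, in the window chr4:136180532-136180831, downstream of the M21 start at base 136172394. E2f2 and E2f3 had 2 windows each, so for both words a match per gene stands beside a share per window. A match is a description of the letters only, and the words were not related to the counts.

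TKO1 gave 3193 cells and TKO2 gave 3568 with more than 500 detected genes, of 4514 and 3816 barcodes, with a median of 1223 and 1960 unique molecular identifiers (UMIs, each marking 1 captured RNA molecule) per cell. 22 barcodes occurred in both libraries. Tumor cells were all clusters not named from macrophage or club markers. They made up 2990 cells of TKO1 (93.6%) and 3381 of TKO2 (94.8%), in 8 clusters per tumor. Each of these clusters had 11 to 13 of 14 neuroendocrine markers in TKO1, and 7 to 11 in TKO2, at least 2-fold above the macrophage-like cells. The summed level of that list was 22974 CPM (UMIs of a gene or list for each 1000000 UMIs of the class) in the tumor cells of TKO1 and 1758 CPM in those of TKO2. In TKO1, cluster 3 held the fibroblast marker Dcn among its top genes, and cluster 4 had 5 of 7 ciliated markers at least 4-fold above the other cells, so the neutral name tumor cells is used. The macrophage-like cells numbered 98 and 121. A further 105 cells of TKO1 and 66 of TKO2 were led by club cell genes, and those of TKO2 also had 12 of the 14 neuroendocrine markers 2-fold above macrophages and 5 of 7 ciliated markers 4-fold above the other cells. Their AT1 list stood at 326 CPM, the AT2 list at 201 CPM and the fibroblast list at 393 CPM, and in the club-led cells of TKO1 the AT2 list stood at 2339 CPM and the AT1 list at 1276 CPM. Both clusters are therefore called club-led and given no type. The macrophage-like cells also held the neuroendocrine list at 4426 CPM in TKO1 and 648 CPM in TKO2, with T cell markers at 119 and 324 CPM, B cell markers at 69.9 and 169 CPM and neutrophil markers at 853 and 178 CPM.

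A cell was called cycling when, after random thinning to 1000 UMIs, it held at least 4 UMIs of 31 S phase and 39 G2/M genes, none of them a member, and non-cycling when it held at most 1. TKO1 had 786 cycling and 780 non-cycling tumor cells, and TKO2 had 2129 and 303. These classes are ranges of a continuous score and not cell types. Between the limits lay 584 and 588 cells, called intermediate, and 840 and 361 cells with under 1000 UMIs were not classed. Cycling cells were split into S-leading (483 and 1083), G2M-leading (271 and 911) and tied (32 and 135) by the list with more UMIs.

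**Figure D1:**
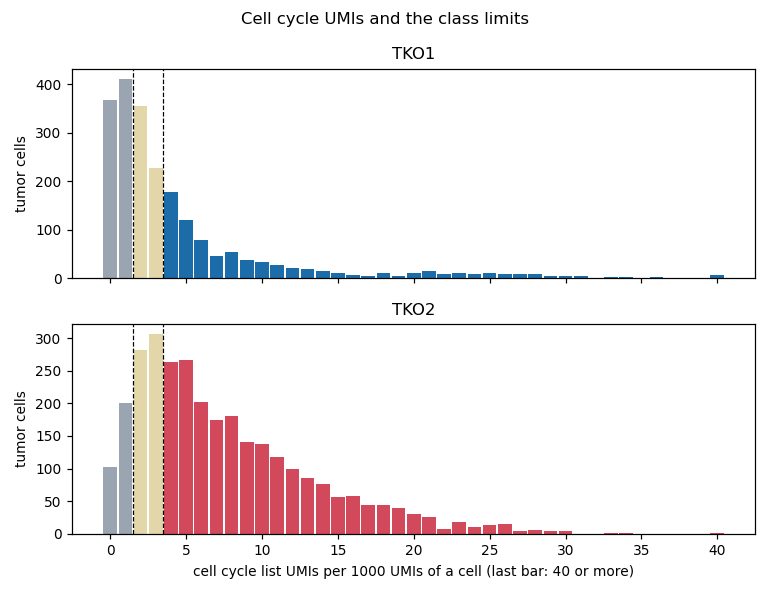
Number of tumor cells (vertical axis) by UMIs of the cell cycle lists per 1000 UMIs of the cell (horizontal axis) in TKO1 and TKO2, with dashed lines at the limits of non-cycling (grey), intermediate (pale) and cycling (colored) cells. TKO1 has most cells at 0 to 3 UMIs and 786 cycling cells, while TKO2 has a broad range and 2129 cycling cells.

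UMIs were summed per class and given as CPM with exact Poisson 95% intervals, and ratios as log2 with exact conditional binomial 95% intervals. With 1 library per tumor no test between groups was possible, and all intervals cover counting error only. In such sums fewer cells with the RNA and less RNA per cell cannot be told apart. The reads come from one end of the transcript and are not corrected for length, so levels are compared within a gene and never between genes. A gene is counted as different when the ratio is at least 2-fold with at least 10 UMIs in the 2 classes together.

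Within TKO1, 7 of the 10 members were at least 2-fold higher in cycling than in non-cycling cells: Rbl1, E2f1, E2f2, E2f7, E2f8, Ccne1 and Ccne2. Over all 10851 genes with enough UMIs, 8.35% were, and 5.23% were lower, as 0 members were. Within TKO2 it was 5 members, E2f2, E2f7, E2f8, Ccne1 and Ccne2, against 9.20% of 10753 genes, and 1 member, Rbl2, was counted as lower from 10 and 3 UMIs with an interval that spans 0, against 5.18%. The median log2 ratio of the members was 1.67 in TKO1 and 0.76 in TKO2, and that of all genes 0.01 and 0.04. The classes were set by S phase and G2/M genes, so higher levels of genes of the cycle are partly built into them. The repressor E2f8, the activator E2f2 and both cyclin E genes thus had intervals above 0 in either tumor, while that of the repressor E2f7 spans 0 in TKO2, where its ratio of 1.05 was 0.12 with barcodes of more than 200 genes. The non-cycling cells of TKO2 gave few UMIs, and the count of TKO2 was 2 with barcodes of more than 200 genes and also 2 with more than 1000. Cycling cells were also deeper, with a median of 1609.5 against 1291 UMIs in TKO1 and 2262 against 1769 in TKO2. The neuroendocrine marker list was lower in them, at 16755 against 26949 CPM in TKO1 and 1698 against 1934 CPM in TKO2. The ciliated list stood at 134 against 345 CPM and 17.6 against 47.0 CPM. The part of depth and of these markers in the ratios was not tested, but without clusters 3 and 4 of TKO1, an alternative added after seeing the data, the count of TKO1 was again 7.

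**Figure D2:**
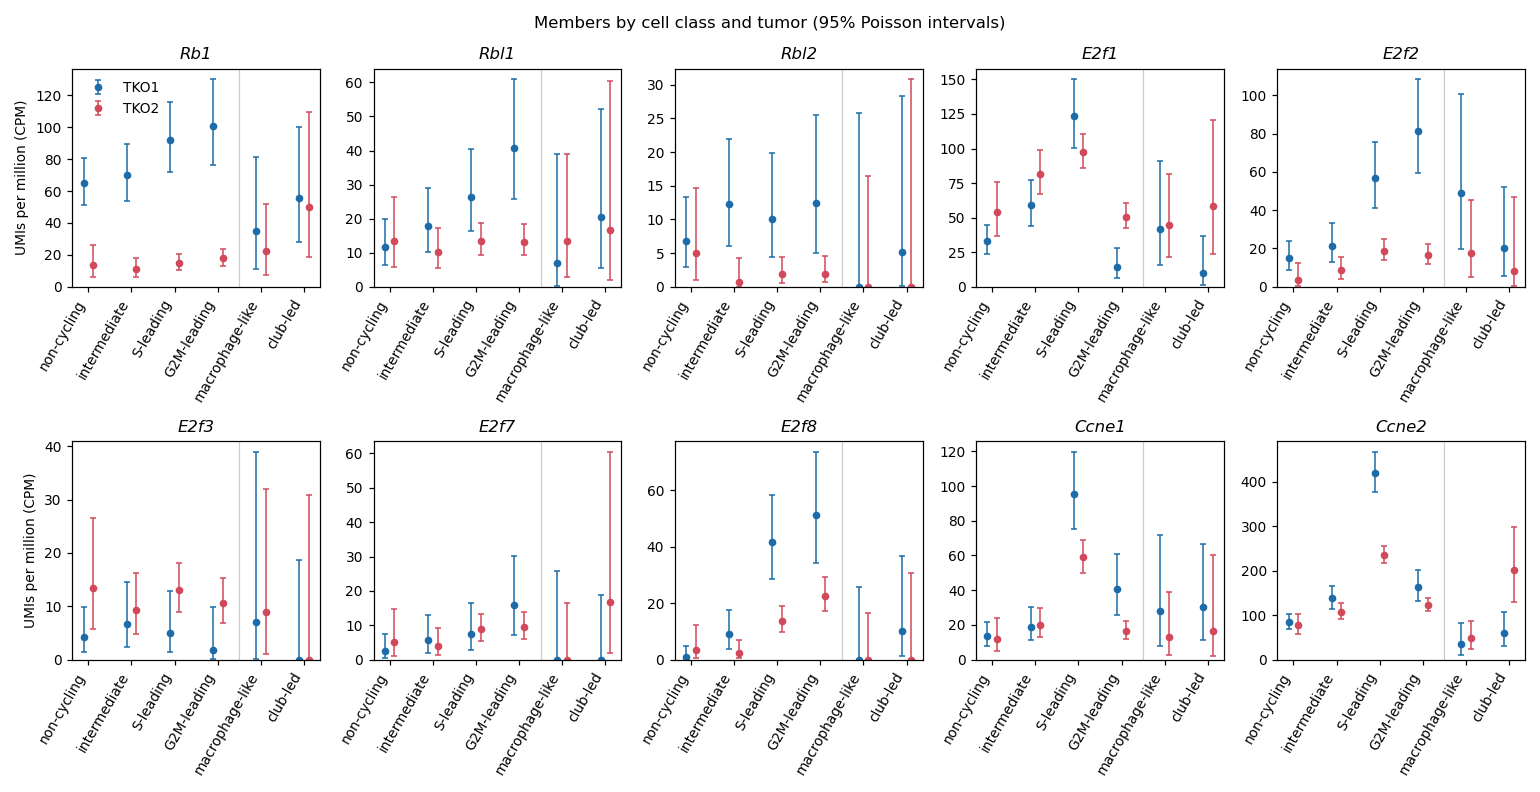
Level of each member in CPM (vertical axes, each from 0 and of its own range) in the classes of tumor cells, the macrophage-like cells and the club-led cells of TKO1 (blue) and TKO2 (red), as points with exact Poisson 95% intervals. Rb1 is higher in each tumor cell class of TKO1 than in that of TKO2, E2f1 and Ccne1 peak in S-leading cells, and E2f8 is near 0 in non-cycling cells.

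Rb1 (ENSMUSG00000022105, chr14:73183673-73325822 in GENCODE M21) encodes pRB, the founding pocket protein, and is deleted in these tumors by recombination that removes part of the gene. UMIs were nonetheless counted: 326 in the tumor cells of TKO1 (77.1 CPM, 69.0 to 86.0) and 118 in those of TKO2 (15.2 CPM, 12.6 to 18.2). Since a UMI is assigned to a gene and not to an exon, these values are no check of the deletion. In TKO1 cycling cells had 138 UMIs (97.1 CPM) and non-cycling cells 77 (64.8 CPM), a log2 ratio of 0.58 (0.17 to 1.01). In TKO2 the classes had 93 UMIs (16.7 CPM) and 8 UMIs (13.4 CPM), a log2 ratio of 0.31 (-0.73 to 1.57). The point ratios of Rb1 between cycling and non-cycling cells were thus under 2-fold, while both intervals reach past 2-fold. The S-leading and G2M-leading levels of Rb1 lay close, at 91.9 and 101 CPM in TKO1 and 14.9 and 18.0 CPM in TKO2.

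Rbl1 (ENSMUSG00000027641, chr2:157145893-157204534), which encodes p107 and is the intact member of the family in this genotype, had 84 UMIs in TKO1 (19.9 CPM, 15.9 to 24.6) and 100 in TKO2 (12.9 CPM, 10.5 to 15.7). In TKO1 it stood at 32.4 CPM in cycling cells (46 UMIs) and 11.8 CPM in non-cycling cells (14 UMIs), a log2 ratio of 1.46 (0.57 to 2.44). In TKO2 it stood at 13.1 CPM (73 UMIs) and 13.4 CPM (8 UMIs), a log2 ratio of -0.04 (-1.09 to 1.23). The intervals of these ratios overlap between the tumors, and the difference between them was not tested. Rbl2 (ENSMUSG00000031666, chr8:91070057-91123844), which encodes p130, the pocket protein of resting cells, is deleted like Rb1 and was the member with the fewest UMIs over both tumors. It had 40 UMIs in TKO1 (9.46 CPM, 6.76 to 12.9) and 14 in TKO2 (1.80 CPM, 0.986 to 3.03). Its log2 ratio of cycling to non-cycling cells was 0.83 (-0.46 to 2.25) from 17 and 8 UMIs in TKO1 and -1.49 (-3.45 to 1.01) from 10 and 3 UMIs in TKO2, and both intervals span 0, so no direction is read from them.

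Among the activators, E2f1 (ENSMUSG00000027490, chr2:154559407-154569892) had the largest ratio between the phases in TKO1. In TKO1 it had 98 UMIs in S-leading cells (123 CPM, 100.2 to 150.4), 8 in G2M-leading cells (14.1 CPM, 6.11 to 27.9) and 39 in non-cycling cells (32.8 CPM, 23.3 to 44.9). The log2 ratio of S-leading to G2M-leading cells was 3.13 (2.09 to 4.38). In TKO2 it had 256 UMIs in S-leading cells (97.7 CPM, 86.1 to 110.4), 130 in G2M-leading cells (50.7 CPM, 42.4 to 60.2) and 32 in non-cycling cells (53.8 CPM, 36.8 to 75.9). There the ratio was 0.94 (0.63 to 1.26). S-leading cells thus had the most E2f1 of these classes in either tumor. Intermediate cells had 59.1 CPM (44.2 to 77.2) in TKO1 and 81.6 CPM (66.8 to 98.8) in TKO2, where the interval overlaps that of S-leading cells. The intervals of G2M-leading and non-cycling cells overlap in each tumor, and no ratio between these classes was taken. The G2M-leading cells were not alike in the 2 tumors, with 14.7 G2/M list UMIs per 1000 in TKO1 and 9.45 in TKO2, and the part of this in the ratios was not tested. Over cycling cells as a whole E2f1 had a log2 ratio to non-cycling cells of 1.23 (0.69 to 1.79) in TKO1 and 0.47 (-0.05 to 1.03) in TKO2. With the G2/M list alone, which puts cells rich in S phase UMIs among the non-cycling, the value of TKO1 was -1.77 (-2.80 to -0.89).

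E2f2 (ENSMUSG00000018983, chr4:136172394-136196057) was higher in cycling cells, with smaller differences between the phases. It had 93 UMIs in cycling cells (65.5 CPM, 52.8 to 80.2) and 18 in non-cycling cells (15.1 CPM, 8.97 to 23.9) of TKO1, a log2 ratio of 2.11 (1.37 to 2.93). In TKO2 it had 103 UMIs (18.5 CPM, 15.1 to 22.4) and 2 UMIs (3.36 CPM, 0.407 to 12.1), a log2 ratio of 2.46 (0.57 to 5.52). Its S-leading and G2M-leading levels were 56.7 and 81.3 CPM in TKO1 and 18.7 and 16.4 CPM in TKO2, each pair within 2-fold. E2f3 (ENSMUSG00000016477, chr13:29906575-29986063), the third activator, gave 19 UMIs in TKO1 (4.50 CPM, 2.71 to 7.02) and 91 in TKO2 (11.7 CPM, 9.44 to 14.4). Cycling and non-cycling cells had 5 and 5 UMIs of E2f3 in TKO1, a log2 ratio of -0.26 (-2.38 to 1.86). In TKO2 they had 67 and 8 UMIs, a log2 ratio of -0.16 (-1.22 to 1.11). Both intervals span 0 and reach past 2-fold higher, so no direction is read from them.

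The atypical repressors gave 1 to 3 UMIs each in the non-cycling cells of a tumor. E2f8 (ENSMUSG00000046179, chr7:48866429-48881596) had 63 UMIs in the 786 cycling cells of TKO1 (44.3 CPM, 34.1 to 56.7) and 1 UMI in the 780 non-cycling cells (0.841 CPM, 0.0213 to 4.69), a log2 ratio of 5.72 (3.19 to 11.05). In TKO2 it had 99 UMIs in cycling cells (17.8 CPM, 14.4 to 21.6) and 2 in non-cycling cells (3.36 CPM, 0.407 to 12.1), a log2 ratio of 2.40 (0.51 to 5.47). Of the members it had the largest cycling ratio in TKO1, and in TKO2 its ratio was close to that of E2f2. Its log2 ratio of S-leading to G2M-leading cells was -0.72 (-1.36 to -0.10) in TKO2. In TKO1 the ratio was -0.30 (-1.07 to 0.47), and 0.32 with a limit of 6 list UMIs, so no direction is read there. E2f7 (ENSMUSG00000020185, chr10:110745439-110787384) had 35 and 67 UMIs in all tumor cells, so its ratios are loose. Cycling and non-cycling cells had 16 and 3 UMIs in TKO1, a log2 ratio of 2.16 (0.35 to 4.58), and 58 and 3 UMIs in TKO2, a log2 ratio of 1.05 (-0.57 to 3.36).

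The E-type cyclins, which activate CDK2 at the entry to S phase, were higher in cycling cells and highest in S-leading cells. Ccne2 (ENSMUSG00000028212, chr4:11191351-11204779) gave the most UMIs of all members, 753 in TKO1 (178 CPM, 166 to 191) and 1253 in TKO2 (162 CPM, 153 to 171). It stood at 311 CPM in cycling cells (283 to 342, 442 UMIs) and 85.0 CPM in non-cycling cells (69.2 to 103, 101 UMIs) of TKO1, a log2 ratio of 1.87 (1.56 to 2.20). In TKO2 it stood at 182 CPM (171 to 194, 1014 UMIs) and 77.3 CPM (56.6 to 103, 46 UMIs), a log2 ratio of 1.24 (0.81 to 1.69). The intervals of the cycling and non-cycling levels do not overlap in either tumor. The ratios of Ccne2 depend on the S list, since with the G2/M list alone they were 0.22 in TKO1 and 0.05 in TKO2. That setting puts cells rich in S phase UMIs among the non-cycling. S-leading and G2M-leading cells had 421 and 164 CPM in TKO1, a log2 ratio of 1.35 (1.02 to 1.70), and 235 and 124 CPM in TKO2, a log2 ratio of 0.93 (0.73 to 1.13).

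Ccne1 (ENSMUSG00000002068, chr7:38097984-38107534) had 154 UMIs in TKO1 (36.4 CPM, 30.9 to 42.7) and 257 in TKO2 (33.1 CPM, 29.2 to 37.4). Its cycling and non-cycling levels were 71.8 CPM (102 UMIs) and 13.5 CPM (16 UMIs) in TKO1, a log2 ratio of 2.42 (1.65 to 3.28). In TKO2 they were 38.4 CPM (214 UMIs) and 11.8 CPM (7 UMIs), a log2 ratio of 1.71 (0.64 to 3.04). With the G2/M list alone the log2 ratios were 0.49 in TKO1 and -0.87 in TKO2. Ccne1 also followed the phase, with 95.7 CPM in S-leading and 40.7 CPM in G2M-leading cells of TKO1 and 59.1 and 16.4 CPM in TKO2. The log2 ratios of the phases were 1.23 (0.55 to 1.98) and 1.85 (1.35 to 2.38).

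**Figure D3:**
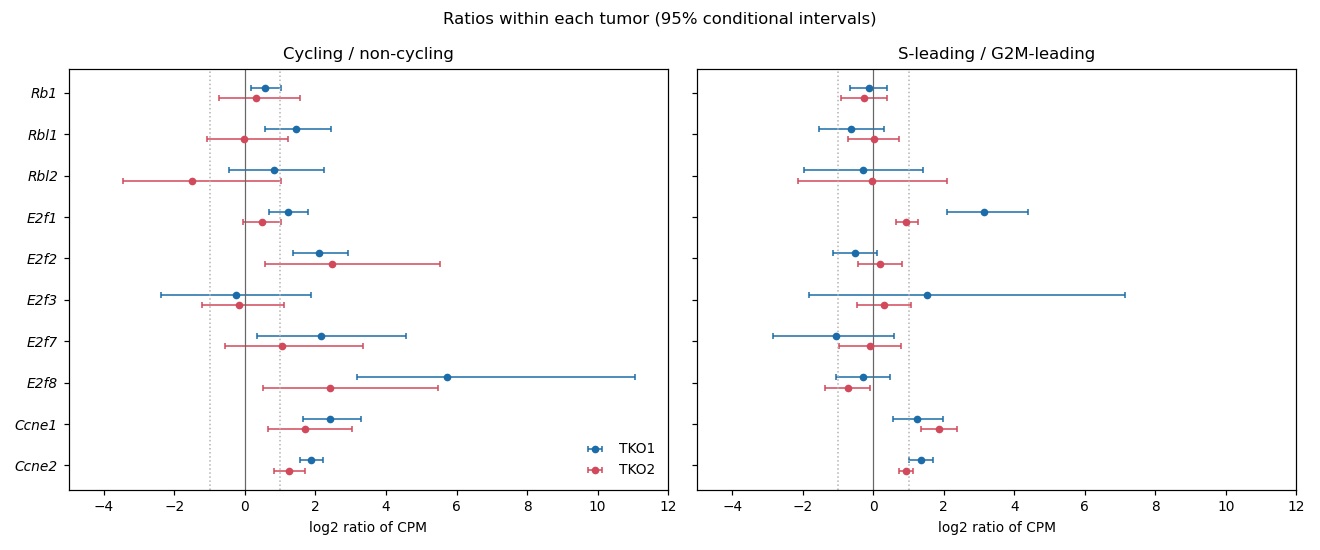
Log2 ratio of CPM of each member between cycling and non-cycling cells (left) and between S-leading and G2M-leading cells (right) in TKO1 (blue) and TKO2 (red), with exact conditional 95% intervals and dotted lines at 2-fold. E2f2, E2f8, Ccne1 and Ccne2 lie to the right of 0 with their whole interval in both tumors in the left panel, and so do E2f1, Ccne1 and Ccne2 in the right panel.

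Between S-leading and G2M-leading cells, 4 of the 9 members with enough UMIs were at least 2-fold different in TKO1, E2f1, Ccne1 and Ccne2 higher and E2f7 lower (log2 ratio -1.07, -2.85 to 0.58, from 6 and 9 UMIs). Of all genes 9.51% were higher and 7.23% lower, 16.7% in all. In TKO2 it was 1 of 10, Ccne1, which was higher, against 4.36% of all genes higher, 3.71% lower and 8.07% in all. E2f1 and Ccne2 of TKO2 lay just under 2-fold.

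The classes were also split more finely by the number of cell cycle list UMIs, where 0 and 1 make up the non-cycling cells, 2 to 3 the intermediate and 4 or more the cycling cells. E2f1 in TKO1 stood at 23.8 CPM in cells with 0 list UMIs, 40.5 CPM with 1, 59.1 CPM with 2 to 3, 94.6 CPM with 4 to 6, 97.0 CPM with 7 to 10 and 41.0 CPM with 11 or more. In TKO2 the same bins had 30.5, 65.3, 81.6, 85.1, 85.7 and 55.3 CPM of E2f1. The point values of this activator were thus highest with 4 to 10 list UMIs in each tumor. In TKO2 the intervals with 1 (42.65 to 95.7) and 2 to 3 list UMIs (66.8 to 98.8) overlap those with 4 to 6 (72.0 to 99.85) and 7 to 10 (72.5 to 100.6). The interval with 11 or more (45.65 to 66.5) lies below the last 2. The bins add up UMIs of both lists, so phase and amount are not told apart. Ccne2 in TKO1 went from 62.2 CPM in the lowest bin to 425 CPM with 7 to 10 list UMIs and 262.5 CPM with 11 or more, and in TKO2 from 35.5 CPM to 191 CPM in each of the top 2 bins. E2f8 in TKO1 had 0 UMIs in the 368 cells without list UMIs, 73.6 CPM with 7 to 10 and 53.3 CPM with 11 or more. Rb1 in TKO1 lay between 62.2 and 75.7 CPM in the 4 lowest bins. It stood at 147 CPM (107 to 198) with 7 to 10 list UMIs and at 94.3 CPM (69.1 to 126) with 11 or more. The interval of the lowest bin (43.1 to 86.9) does not reach that of 7 to 10 list UMIs but overlaps that of 11 or more. In TKO2 the same bins had 0, 20.1, 10.9, 9.64, 19.4 and 20.4 CPM of Rb1, so 7 to 10 list UMIs did not stand out there. E2f2 was highest in the top bin of both tumors, at 96.4 CPM in TKO1 and 21.8 CPM in TKO2.

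**Figure D4:**
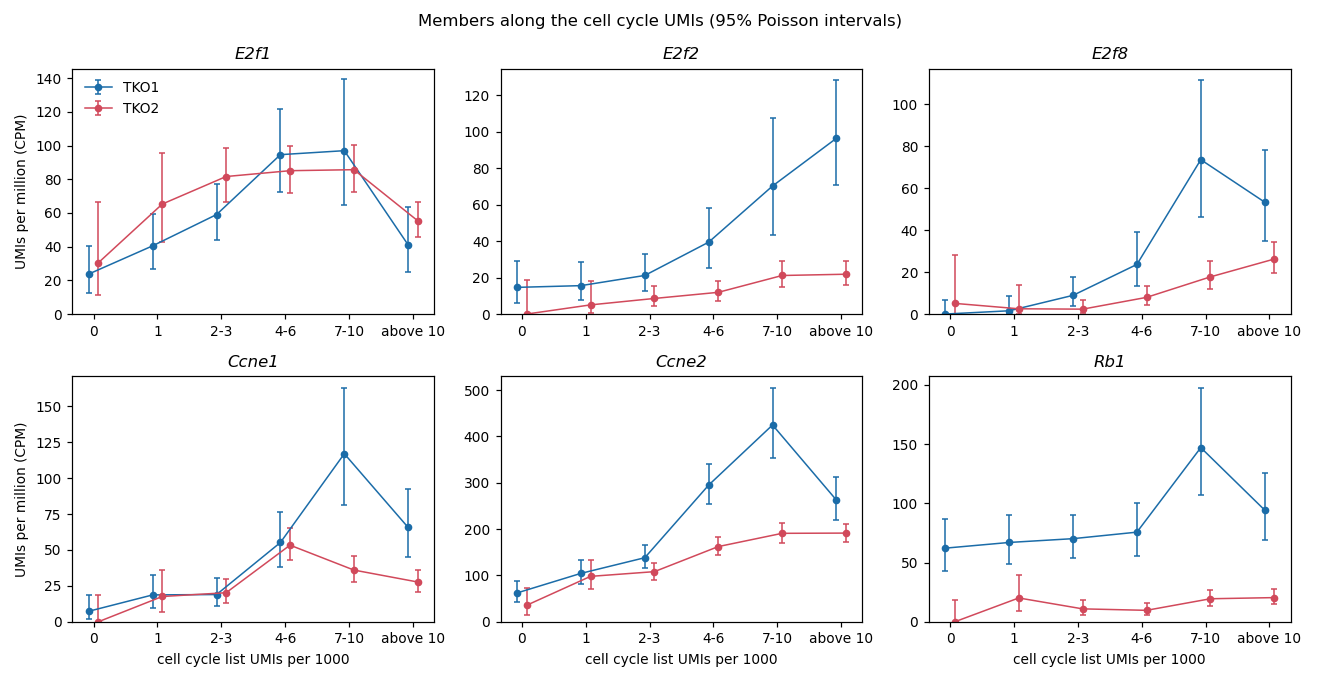
Level in CPM (vertical axes) of 6 members in tumor cells sorted by UMIs of the cell cycle lists per 1000 (horizontal axes) in TKO1 (blue) and TKO2 (red), with exact Poisson 95% intervals. The points of E2f1 are highest from 4 to 10 list UMIs and lower at 11 or more, those of E2f2 keep increasing, and Rb1 lies apart between the tumors in all bins.

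Over the 8 clusters of tumor cells in each tumor, which were found from the same counts without the members and so describe their spread only, E2f1 ran from 13.0 to 129 CPM in TKO1 and from 27.6 to 91.5 CPM in TKO2. The highest cluster of TKO1 (cluster 5) had 4.47 S list and 1.14 G2/M list UMIs per 1000, and the lowest (cluster 6) had 2.58 and 14.7. Ccne2 ran from 56.4 to 449 CPM and from 92.7 to 224 CPM, and E2f8 from 0 to 54.9 CPM and from 1.00 to 27.8 CPM. Rb1 ran from 44.2 to 108 CPM in TKO1 and from 6.74 to 34.6 CPM in TKO2, so that the ranges of its point values did not overlap. The intervals of the nearest clusters do, at 24.7 to 72.8 CPM in TKO1 and 24.8 to 46.9 CPM in TKO2. The point values of E2f3, at 1.62 to 8.83 CPM and 9.19 to 15.7 CPM, did not overlap either. Its nearest clusters rest on 3 UMIs in TKO1 (1.82 to 25.8 CPM) and 11 UMIs in TKO2 (4.59 to 16.4 CPM). Those intervals overlap, so no separation of E2f3 by cluster is read. The ranges of the other 8 members, among them Rbl2 at 1.88 to 17.4 CPM and 0 to 4.46 CPM, overlapped.

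At 1 depth for all cells, 25.7% of cycling and 6.80% of non-cycling cells of TKO1 held a Ccne2 UMI after thinning to 1000 UMIs, and 36.5% and 9.62% before it. In TKO2 the shares were 16.8% and 6.27% after and 31.9% and 12.5% before thinning. The macrophage-like cells, taken as background, had 3.66% in TKO1 (82 cells, 16 left out as too shallow, median 1433 UMIs) and 2.68% in TKO2 (112 cells, 9 left out, median 1717.5 UMIs) after thinning. E2f8 was found in 4.45% of cycling cells of TKO1 and in 0 of 780 non-cycling cells, which allows a share of up to 0.385% at the limit of 3 counts. In TKO2 it was found in 1.74% and 0.330%, and in 0 thinned macrophage-like cells of either tumor, which allows up to 3.66% and 2.68%. For Ccne2 the cycling share was above that background in both tumors, while for E2f8 in TKO2 it lay below what 0 macrophage-like cells allow.

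Between the tumors, 3 members were at least 2-fold higher in TKO1 tumor cells, Rb1, Rbl2 and E2f2, against 31.2% of 12927 genes, and E2f3 was lower, against 12.3%, or 43.5% either way. The shares of members are close to these backgrounds. The median of all genes was itself 0.37 higher in TKO1 on the log2 scale, so values relative to it are given as well. Rb1 had a log2 ratio of TKO1 to TKO2 of 2.34 (2.03 to 2.66), or 1.98 relative to the median, and Rbl2 one of 2.39 (1.48 to 3.38), or 2.02. Over all tumor cells the RNA counted for both deleted pocket protein genes was thus higher in TKO1, at folds of 5.07 and 5.25 before the shift of the median. E2f2 had 1.13 (0.78 to 1.48), or 0.76 relative to the median, and was under 2-fold with trimmed mean (TMM) scaling, at 0.85. E2f3 had -1.38 (-2.18 to -0.66), or -1.75. The other members lay within 2-fold: Rbl1 at 0.62, E2f1 at -0.37, E2f7 at -0.06, E2f8 at 0.45. Ccne1 and Ccne2 were both at 0.14 and turned to -0.14 with TMM scaling.

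Cells called cycling were 26.3% of all tumor cells in TKO1 and 63.0% in TKO2, so the members were also compared within a class. These shares count the cells with under 1000 UMIs, which were not classed, among the rest. Such cells were 28.1% of the tumor cells in TKO1 and 10.7% in TKO2, so depth enters the gap between the shares. Among cycling cells Rb1 (2.54, 2.15 to 2.94), Rbl1 (1.31, 0.74 to 1.86), Rbl2 (2.74, 1.53 to 4.03), E2f2 (1.82, 1.40 to 2.24) and E2f8 (1.32, 0.84 to 1.79) were at least 2-fold higher in TKO1 and E2f3 lower (-1.77, -3.44 to -0.48). Of all genes 27.9% were higher and 10.9% lower, 38.9% either way. Relative to the median of 0.33, Rbl1 and E2f8 fall just under 2-fold, at 0.98 and 0.99. E2f1 differed little in cycling cells as a whole, at 76.7 and 74.3 CPM, with a log2 ratio of 0.05 (-0.27 to 0.35). That ratio turned to -0.25 with TMM scaling and to -1.55 with the G2/M list alone. By phase, the E2f1 intervals of the tumors overlapped in S-leading cells and lay apart in G2M-leading cells. S-leading cells had 123 CPM (100.2 to 150.4) in TKO1 and 97.7 CPM (86.1 to 110.4) in TKO2. G2M-leading cells had 14.1 CPM (6.11 to 27.9) and 50.7 CPM (42.4 to 60.2). These levels are not set relative to the median of all genes. The G2M-leading cells also differed in G2/M list UMIs, at 14.7 and 9.45 per 1000, and the part of this was not tested. Among non-cycling cells Rb1 (2.27, 1.22 to 3.53) and E2f2 (2.17, 0.11 to 5.32) were higher and E2f3 (-1.68, -3.63 to 0.12) lower in TKO1, 3 of 8 members with enough UMIs, against 33.9% of all genes higher, 11.0% lower and 44.9% either way. The E2f2 ratio rests on 18 and 2 UMIs and was 0.71, under 2-fold, with thinning seed 2. Relative to the median of 0.44, E2f1 was at least 2-fold lower too, at -1.15. Rbl2 stood at 0.42 (-1.64 to 2.97) in non-cycling cells, from 8 and 3 UMIs, or -0.02 relative to the median. It was -0.70 without thinning and 2.14 with the G2/M list alone, so no direction is read there. In intermediate cells Rbl2 had 11 UMIs in TKO1 (12.3 CPM, 6.12 to 21.9) and 1 UMI in TKO2 (0.777 CPM, 0.0197 to 4.33). Its higher level in TKO1 was seen over all tumor cells and in cycling cells, and whether it depends on cycling was not tested. Marker lists also moved between the tumors: the club list had 593 CPM in tumor cells of TKO1 and 35.2 CPM in those of TKO2, and the ciliated list 228 and 22.0 CPM. Their part in these ratios was not tested. Without clusters 3 and 4 of TKO1 the ratios were 2.42 for Rb1, 2.29 for Rbl2, 1.37 for E2f2 and -1.36 for E2f3.

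**Figure D5:**
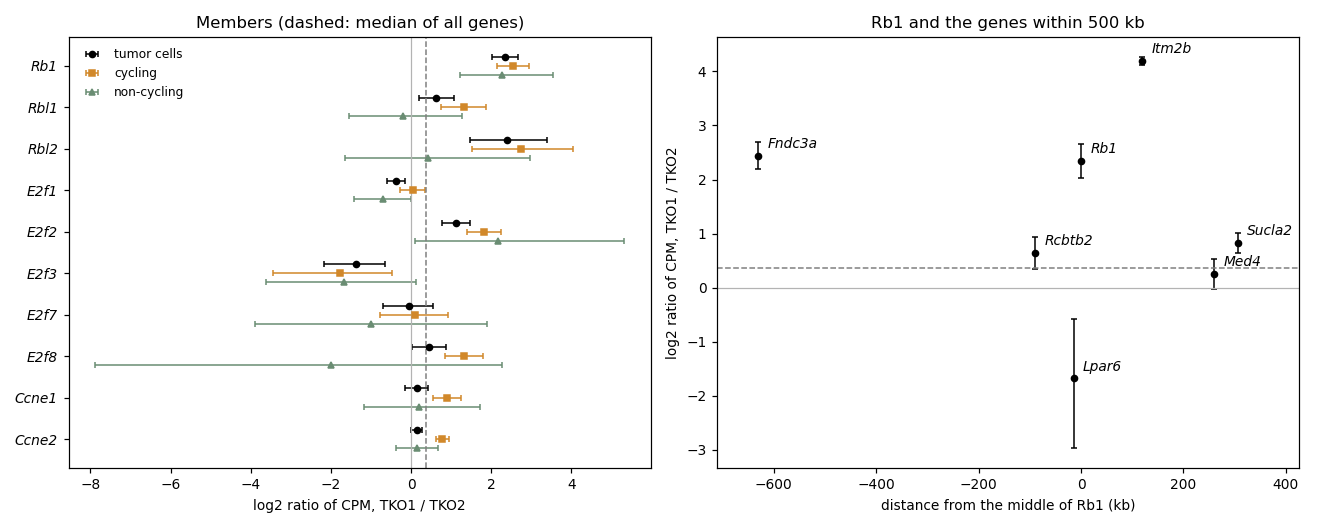
Left, log2 ratio of CPM between TKO1 and TKO2 for each member in all tumor cells (circles), cycling cells (squares) and non-cycling cells (triangles), with exact conditional 95% intervals and the median of all genes in tumor cells as a dashed line. Right, the same ratio in tumor cells for Rb1 and the genes with an end within 500 kb of it, by distance from the middle of Rb1, where Itm2b at 4.20, Fndc3a at 2.44 and Rb1 at 2.34 lie highest.

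Before the shift of the median, the point values of Rb1 were over 4-fold apart between the tumors in each of these classes. In non-cycling cells, with 8 UMIs in TKO2, the log2 ratio was 1.83 relative to the median and 1.35 without thinning. The genes around Rb1 on chromosome 14 were therefore read as well. Within 500 kb, Itm2b, which encodes a membrane protein, had 16927 UMIs in TKO1 and 1696 in TKO2, a log2 ratio of 4.20 (4.12 to 4.27). Fndc3a had 510 and 172 UMIs, a log2 ratio of 2.44 (2.19 to 2.70). Nearer 0 lay Rcbtb2 at 0.64 (0.35 to 0.93), Sucla2 at 0.83 (0.64 to 1.01) and Med4 at 0.26 (-0.02 to 0.53). Lpar6, a receptor gene that lies inside Rb1 on the other strand, went the other way at -1.68 (-2.97 to -0.58) from 8 and 47 UMIs. At least 2-fold apart were thus Itm2b and Fndc3a, higher in TKO1, and Lpar6, lower, against 31.2% and 12.3% of all genes. Relative to the median of all genes the values were 3.83 for Itm2b, 2.08 for Fndc3a and 0.46 for Sucla2. They were 0.28 for Rcbtb2, -0.11 for Med4 and -2.05 for Lpar6. A cause shared by Rb1 and its neighbors was not tested. Rcbtb2 and Lpar6 overlap Rb1, Aktip overlaps Rbl2, Ints8 overlaps Ccne2 and Gm2788 overlaps E2f8, all on the opposite strand, and reads of such a pair can be told apart only if the counting used strand, which is not given in the sources used here.

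The macrophage-like cells were the other class read within both tumors, and they also hold the UMIs of other marker lists given above, whose part in these levels was not tested. Rb1 had 5 UMIs in them in each tumor, 35.0 CPM (11.4 to 81.6) in TKO1 and 22.2 CPM (7.21 to 51.8) in TKO2, and intervals this wide overlap the non-cycling tumor cells of each tumor. E2f7, E2f8 and Rbl2 had 0 UMIs, where 3 UMIs would be 21.0 CPM in TKO1 and 13.3 CPM in TKO2. E2f1 had 6 UMIs (42.0 CPM, 15.4 to 91.3) and 10 UMIs (44.4 CPM, 21.3 to 81.6), and Ccne2 had 5 UMIs (35.0 CPM, 11.4 to 81.6) and 11 UMIs (48.8 CPM, 24.4 to 87.4). Of the 6 members with enough UMIs in either tumor, 3 were at least 2-fold different from non-cycling tumor cells in TKO1, E2f2 (1.69, 0.19 to 3.02) and Ccne1 (1.06, -0.98 to 2.69) higher and Ccne2 (-1.28, -2.93 to -0.01) lower. Of all genes 13.4% were higher and 29.7% lower, 43.1% in all. In TKO2 it was 0 members, against 16.5%, 26.2% and 42.7% of all genes. The median of all genes was -0.42 and -0.41, and relative to it E2f2 and Ccne1 were higher and 0 members lower in TKO1, and Rb1 was higher in TKO2, at 1.14. The call for Ccne1 rests on 4 UMIs and turned to -0.23 with barcodes of more than 1000 genes, where that of Ccne2 turned to 0.63. With 98 and 121 cells, no order of these levels is read. Whether Rb1 and Rbl2 are deleted in the macrophage-like or the club-led cells was not tested.

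In the club-led cells of TKO1, 2 of 6 members differed at least 2-fold from non-cycling tumor cells, Ccne1 higher (1.18, -0.46 to 2.61, 6 UMIs) and E2f1 lower (-1.69, -4.79 to 0.26, 2 UMIs). Of all genes 8.08% were higher and 32.3% lower, 40.3% in all. Relative to the median of all genes, -0.58, 3 members were higher and 1 lower. In those of TKO2, 2 of 4 members were higher and 0 lower, against 17.7% of all genes higher, 14.6% lower and 32.3% in all. These were Ccne2 with 24 UMIs (201 CPM, 129 to 299) at 1.38 (0.60 to 2.12), and Rb1 with 6 UMIs (50.2 CPM, 18.4 to 109) at 1.90 (0.09 to 3.62). The 24 Ccne2 UMIs came from 10 of the 66 cells. The club-led cells were not selected on cycling, and those of TKO2 held 2.06 S list and 1.96 G2/M list UMIs per 1000, against 1.34 and 0.306 in the non-cycling cells. These 66 cells also had the neuroendocrine list at 8307 CPM, above the 1758 CPM of the tumor cells, and the part of these values in the Ccne2 level was not tested.

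The rest of the pathway was read from lists, against the 8.35% of all genes higher and 5.23% lower in cycling cells of TKO1 and the 9.20% and 5.18% of TKO2. Of 19 other E2F target genes with enough UMIs, 13 were at least 2-fold higher in cycling cells of TKO1 and 0 lower, with a median log2 ratio of 1.61. In TKO2 it was 11 of 20, with a median of 1.10. Cycling cells were chosen by S phase and G2/M genes, so higher E2F targets in them are partly built into that choice. Ccna2, the S and G2 cyclin, was at 5.00 (3.75 to 6.64) and 4.46 (3.23 to 6.09), and Tk1, thymidine kinase, at 3.32 (2.39 to 4.41) in TKO1. The same list gave 0 genes at least 2-fold higher and 7 lower of 20 in TKO1 than in TKO2 tumor cells, against 31.2% and 12.3% of all genes. Among cycling cells alone, 3 of the 20 were lower, Cdt1, Mcm10 and Orc1, against 10.9%, and the tumors differ in their share of cycling cells as given above. Mcm10, a replication initiation factor, had -2.43 (-3.38 to -1.61) in all tumor cells and -1.68 (-2.84 to -0.70) in cycling cells. Of the E2F and DREAM partners, 3 of 11 were higher in cycling cells of each tumor, Lin52, Mybl2 and Foxm1 in TKO1 and Lin54, Mybl2 and Foxm1 in TKO2. The lists share genes, so their counts are not separate. Mybl2 is also on the E2F target list. Ccna2 is on the E2F target list and on that of D cyclins and kinases. E2f4, the E2F that usually pairs with p130 and p107 in resting cells, did not follow cycling, at -0.11 (-0.78 to 0.56) and 0.07 (-0.52 to 0.73). Among D cyclins and kinases, Cdk2, the partner of cyclin E, was higher in cycling cells at 1.17 (0.59 to 1.77) and 2.09 (1.10 to 3.32), Ccna2 was higher too in both tumors, and Ccnd1 was lower in TKO1 from 3 and 7 UMIs. Cdk6 had 0 UMIs in the tumor cells of TKO1 and 121 in those of TKO2, and Cdk4 had 367 and 881 CPM, a log2 ratio of -1.26 (-1.35 to -1.18). Of 8 genes of protein turnover by ubiquitin ligases, Cks1b and Ccnf were higher in cycling cells of both tumors, joined in TKO2 by Skp2 and Fzr1.

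Over the 4 tumor cell classes of each tumor, 8 in all, the pattern of log2(CPM + 10) of 1 member of each group was compared with 8686 genes by Pearson correlation, as a description. The points share their library and the class limits. Ccne2 was most like Tcf19 (0.987), Sf3a3 (0.975), Nt5c3b (0.972), its relative Ccne1 (0.968) and Pkmyt1 (0.938). E2f8 was most like Stmn1 (0.985), Asf1b (0.978), Gsk3a (0.970), Tpmt (0.967) and Usp1 (0.967). E2f1 was most like Acd (0.964), Klhl23 (0.957), D10Wsu102e (0.956), Rfc2 (0.953) and Zfp628 (0.947). For Rb1 the 5 genes most like it, Cggbp1, Tmem51, Aoc1, Mrs2 and Acap2, reached 0.995 to 0.996, and its pattern is mostly the gap between the tumors. E2f1 and E2f8 had a correlation of -0.121 with each other, E2f8 and E2f2 one of 0.877.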

How the data were processed

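Single-cell RNA-seq libraries of 2 tumors were analysed. The authors deposited UMI counts per gene and barcode, not normalized, and the submitters' processing notes name Cell Ranger, Seurat and the build mm10, with versions not given in the sources used here. Of the 27998 gene identifiers, 27645 matched GENCODE M21, which gave positions. Barcodes with more than 500 genes and under 10% mitochondrial UMIs were clustered per tumor with Seurat 5.3.0 in R 4.3.3 (genes in at least 10 cells, scaling to 10000 UMIs, 1000 variable genes without the members, 10 components, resolution 0.8). A cluster was called macrophage-like or club-led with at least 3 markers of that list 4-fold above all other cells. All remaining clusters were taken as tumor cells, whatever other markers they held. Their neuroendocrine markers 2-fold above macrophages were counted afterwards and did not set the name. Doublets were kept. Scrublet (scanpy 1.11.5) called 1 and 2 cells, too few to rely on, so removal of the 117 and 146 cells above the 95th percentile of its score was an alternative. Cells were thinned to 1000 UMIs with seed 1 only to set their class and the shares. All UMIs of a class were then summed. Intervals, limits (3 UMIs for a count of 0) and ratios came from scipy 1.17.1, numpy 2.4.6 and pandas 2.3.3 under Python 3.11.15. edgeR 4.0.16 served only to give TMM factors, since its tests need more than 1 library per group. Likeness was ranked among genes with at least 100 UMIs, and the steps were tested on simulated data. Named genes are the members, list genes, genes overlapping a member, genes within 500 kb of Rb1 with at least 20 UMIs, the 5 genes most like 1 member of each group, markers and leading genes of clusters. Values of some single list genes are not reported here. The members and lists were chosen with earlier results of these data known. Alternatives covered the barcode filter, clustering, doublets, scaling, thinning and the class limits. Depth ran from 4566658 UMIs in TKO1 to 8105281 in TKO2 over the retained cells.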

Additional observations from a re-analysis of the deposited data

Results flagged for a closer look

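Members whose log2 ratio had opposite signs in the 2 tumors are given here, and none of these differences was tested. Rbl1 stood at 1.46 in TKO1 and -0.04 in TKO2 between cycling and non-cycling cells, and at -0.62 and 0.01 between S-leading and G2M-leading cells. Rbl2 stood at 0.83 and -1.49 between cycling and non-cycling cells, from 17 and 8 UMIs in TKO1 and 10 and 3 in TKO2. E2f2 stood at -0.52 and 0.19 between S-leading and G2M-leading cells. Between macrophage-like and non-cycling cells, Rb1 stood at -0.89 and 0.72 and E2f1 at 0.35 and -0.28, and relative to the median of all genes at -0.47 and 1.14 and at 0.77 and 0.14. Between club-led and non-cycling cells, Rb1 stood at -0.21 and 1.90, E2f1 at -1.69 and 0.12 and Ccne2 at -0.48 (-1.48 to 0.39) and 1.38 (0.60 to 2.12). The 95% intervals of Ccne2 in club-led cells do not overlap between the tumors, and those of each other pair do. The club-led clusters of the 2 tumors held different marker lists.

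Barcodes with 500 or fewer genes, which no comparison used, held 191 UMIs of the members in TKO1 (265.9 CPM, against 428 CPM in the retained cells) and 42 in TKO2 (226 CPM, against 344 CPM). Rb1 stood at 64.0 CPM in those of TKO1 from 46 UMIs and at 21.5 CPM in those of TKO2 from 4 UMIs.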

How the results depend on the processing

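Of 181 counts of members past 2-fold under an alternative, 154 stayed within 1.5 times the reported count. Of 1608 single ratios 1550 kept their value within counting error. These totals include alternatives that could not change a result, so they are no measure of stability. Class limits, thinning, seed and single cycle lists left the tumor cells compared between the tumors at 2990 and 3381. Leaving out clusters 3 and 4 of TKO1 left the classes of TKO2 as they were. Counting error was also wide where UMIs were few. Rbl2 in cycling against non-cycling cells of TKO1 ran from 0.31 to 2.25 and was counted as kept. The count of members higher in cycling cells of TKO2 (5) was 2 with barcodes of more than 200 genes, 2 with more than 1000, 3 with thinning to 700 UMIs and 1 with the G2/M list alone, which also gave 4 in TKO1 in place of 7. Between S-leading and G2M-leading cells of TKO2 (1) it was 2 with more than 200 genes, with more than 1000, without the highest Scrublet scores, with thinning to 700 UMIs and with seed 2, 3 with a limit of 6 list UMIs and 4 without thinning, and that of TKO1 (4) was 2 with a limit of 3. Between macrophage-like and non-cycling cells of TKO2 (0) it was 1 with more than 200 genes, without the highest Scrublet scores, with thinning to 700 UMIs, without thinning, with seed 2 and with the S list alone, and 3 with the G2/M list alone. In TKO1 (3) it was 5 with the S list alone and 1 with non-cycling cells at 0 list UMIs, which also gave 1 for club-led cells of TKO2 (2) and 1 between the tumors in non-cycling cells (3). The last count was 5 with more than 200 genes, with the S list alone and with the G2/M list alone. The ratios of at least 2-fold that changed sign were those of E2f1 (-1.77 in TKO1) and Ccne1 (-0.87 in TKO2) between cycling and non-cycling cells, and of Ccne1 in macrophage-like (-0.27) and club-led cells (-0.15) of TKO1, all with the G2/M list alone, and of Ccne1 (-0.23) and Ccne2 (0.63) in macrophage-like cells of TKO1 with more than 1000 genes. The cause was not tested. No paired analysis was possible because each tumor is 1 library and no test was made.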
